A study of Mus musculus with 8 samples.

Results

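The 10 genes described here encode heat shock proteins of the Hsp70 class (Hspa1a, Hspa1b, Hspa8 and Hspa5), the Hsp110 protein Hsph1, the J protein Dnajb1, the cytosolic Hsp90 proteins (Hsp90aa1 and Hsp90ab1) and the mitochondrial chaperonin pair Hspd1 and Hspe1. They were taken by gene symbol from a table of 35896 mouse genes, in which each symbol had 1 row. All 10 were among the 17182 genes that passed the filter on low counts. They were chosen by role and by their measured values in these libraries, with the levels against CTRL and the gap between the 2 CTRL libraries in view. Each comparison with CTRL, and the CTRL gap itself, is therefore given as a description.

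RNA-sequencing was performed on aortic tissue of male C57BL6 mice, in 8 libraries with tissue of 2 mice pooled in each. In the AngII group, mice aged 11 weeks received angiotensin II, a vasoconstrictor peptide hormone, from an osmotic minipump at 2.8 mg/kg per day for 2 weeks and were killed when the infusion ended. The AngII+2W and AngII+3W groups had the same infusion and were killed 2 and 3 weeks after it had ended. CTRL mice were untreated littermates of matched age, taken at each of these times in the study, and the labels do not tell at which time those of a given library were killed. Each group had 2 libraries. Whether CTRL mice carried a pump is not given in the sources used here. P-values measure only the spread between pools of different mice.

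Hsp70 proteins bind unfolded stretches of other proteins and release them in a cycle driven by ATP. J proteins such as Dnajb1 start the cycle, and Hsp110 proteins such as Hsph1 exchange the nucleotide. Hsp90 takes over clients such as kinases and steroid receptors at a later stage of folding, Hspa5 (BiP) serves the endoplasmic reticulum (ER), and the Hspd1 and Hspe1 complex folds proteins in the mitochondrial matrix. Heat shock factor 1 binds repeated GAA and TTC units, named heat shock elements, before the inducible genes of this group, while Hspa5 is a classical target of the unfolded protein response.

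Promoter sequences of 7 of the 10 genes were found in RefSeq (GRCm38.p6), and Hspa8, Hsp90aa1 and Hsp90ab1 were not among them. The 250 bases before each start site were searched on both strands for GAANNTTC and TTCNNGAA (2 units of the heat shock element), for 3 and 4 alternating units with NN between them, and for the ER stress element (CCAAT and CCACG with 9 bases between them). The longer heat shock motifs contain the shorter ones. Sequences that hold a match are given 5′ to 3′, on the strand stated for each, and the matched units are in capitals. They were printed for the match and not for a change in level. Those of Hspa1a (chr17:34972157-34972406, minus strand) and Hspa1b (chr17:34959239-34959488, minus strand) were identical at 247 of 250 bases. Hsph1 is shown from chr5:149636337-149636586 on the minus strand, and Hspa5 from chr2:34771840-34772089 on the plus strand. The last sequence is the 215 bases between Hspd1, from its start site at 55087932, and Hspe1, which are transcribed away from each other (chr1:55087933-55088147, plus strand, the strand of Hspe1).
Hspa1a: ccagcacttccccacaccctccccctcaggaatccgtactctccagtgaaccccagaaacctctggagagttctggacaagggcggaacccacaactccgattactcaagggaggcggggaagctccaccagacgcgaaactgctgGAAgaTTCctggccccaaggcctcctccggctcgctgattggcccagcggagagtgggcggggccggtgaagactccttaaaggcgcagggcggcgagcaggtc
Hspa1b: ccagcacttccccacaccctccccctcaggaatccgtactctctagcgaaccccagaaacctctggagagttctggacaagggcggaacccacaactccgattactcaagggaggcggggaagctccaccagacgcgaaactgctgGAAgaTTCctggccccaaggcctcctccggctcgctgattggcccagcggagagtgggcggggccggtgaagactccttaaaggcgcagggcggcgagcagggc
Hsph1: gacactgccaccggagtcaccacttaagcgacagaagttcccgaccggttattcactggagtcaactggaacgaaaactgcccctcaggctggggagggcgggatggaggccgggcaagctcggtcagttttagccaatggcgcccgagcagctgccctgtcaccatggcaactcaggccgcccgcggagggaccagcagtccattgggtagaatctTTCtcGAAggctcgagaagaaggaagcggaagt
Hspa5: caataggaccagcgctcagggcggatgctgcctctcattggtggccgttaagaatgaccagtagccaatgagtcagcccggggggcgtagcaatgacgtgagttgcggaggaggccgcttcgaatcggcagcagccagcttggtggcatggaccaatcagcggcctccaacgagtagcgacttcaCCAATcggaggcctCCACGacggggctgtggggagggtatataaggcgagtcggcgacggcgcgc
Hspe1 and Hspd1: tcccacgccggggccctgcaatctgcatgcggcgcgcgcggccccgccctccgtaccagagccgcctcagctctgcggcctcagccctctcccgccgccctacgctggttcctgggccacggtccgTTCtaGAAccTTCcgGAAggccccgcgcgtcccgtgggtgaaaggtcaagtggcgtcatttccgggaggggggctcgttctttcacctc

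GAANNTTC was found 104 to 97 bases before the start site of both Hspa1a and Hspa1b, and 6.69% of 32851 promoters in RefSeq held this motif. Hsph1 held TTCNNGAA 33 to 26 bases before the start site shown, and 7.17% of promoters held it. The stretch between Hspd1 and Hspe1 held 4 units that begin with TTC, 89 to 72 bases before the Hspe1 start, which 4 of 32851 promoters held (0.0122%), both of these genes included. The ER stress element was found 65 to 47 bases before the Hspa5 start and in 0.113% of promoters. None of these letters matched in the windows of Dnajb1 or before the other Hspd1 start site, at 55088243, which lies past the Hspe1 start. A match describes the sequence and was not tested for binding.

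Levels are given as CPM, the counts of a gene per 1000000 counts of its library after TMM scaling. Of the 10 genes, 7 were lower in all 6 libraries of the AngII groups than in both CTRL libraries, namely Hspa1a, Hspa1b, Hspa8, Hsph1, Dnajb1, Hsp90aa1 and Hsp90ab1. Among all tested genes, 7.04% showed this order. Hspa5, Hspd1 and Hspe1 did not show it. In bulk tissue, fewer cells of a type and less RNA per cell cannot be told apart.

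**Figure D1:**
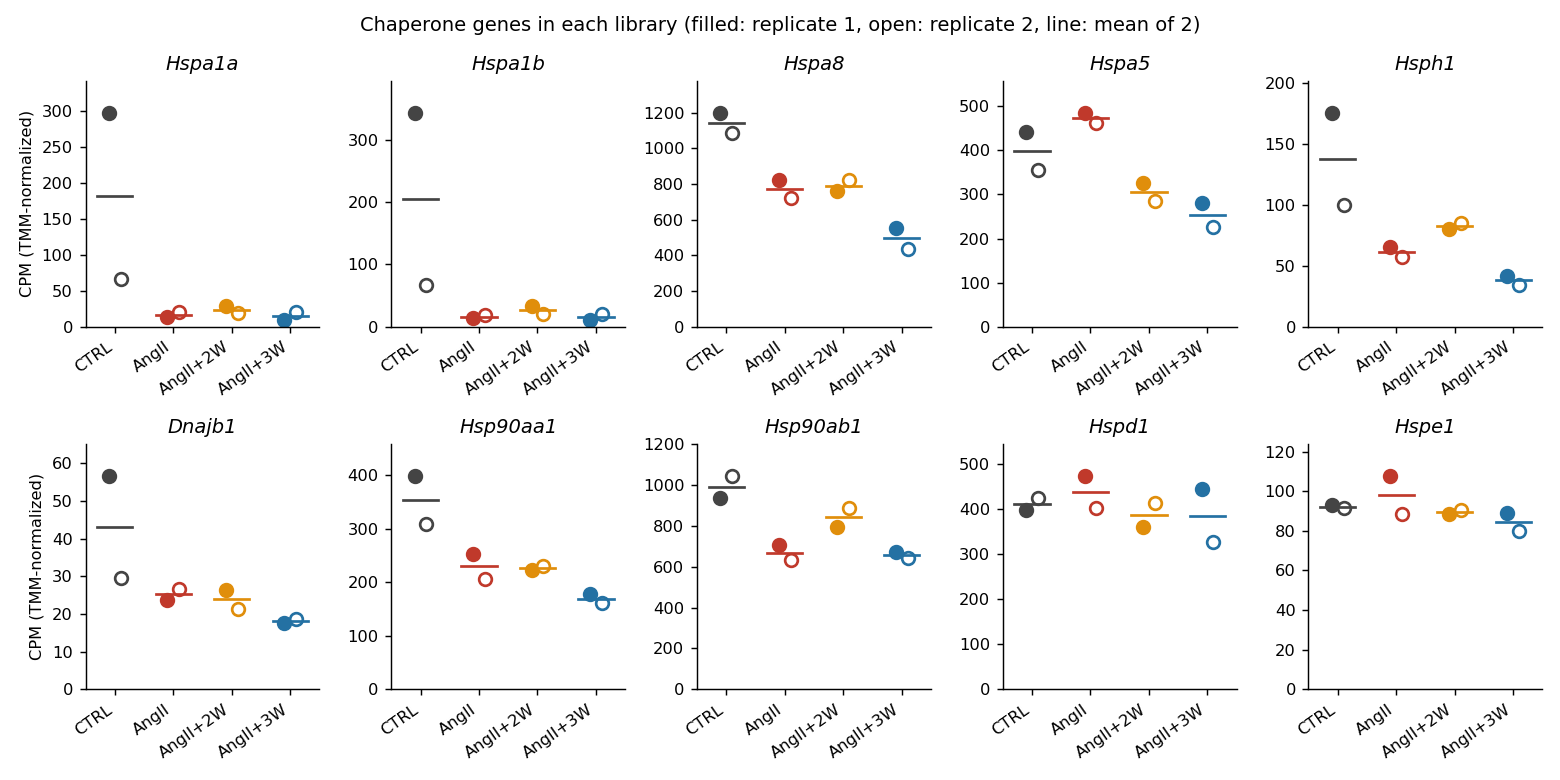
CPM (y axis, linear from 0) of the 10 chaperone genes in the 4 groups (x axis), with replicate 1 filled, replicate 2 open and a line at the mean of both. The CTRL libraries stood far apart for Hspa1a (297 and 66.2 CPM) and close together for Hspe1 (93.0 and 91.3 CPM).

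Hspa1a and Hspa1b encode nearly identical stress-inducible Hsp70 proteins and lie 9951 bases apart on chromosome 17 (GRCm38, Hspa1b at 34956436 to 34959238 and Hspa1a at 34969190 to 34972156, both on the minus strand). Their transcripts matched at 99.2% identity over 74.0% of Hspa1a and 78.5% of Hspa1b, so that the division of reads between them is uncertain. Levels of Hspa1a were 297 and 66.2 CPM for CTRL replicates 1 and 2, 13.0 and 19.8 CPM for AngII, 28.1 and 19.0 CPM for AngII+2W, and 9.14 and 20.4 CPM for AngII+3W. Levels of Hspa1b were 343 and 66.9 CPM for CTRL, 13.4 and 18.5 CPM for AngII, 33.6 and 19.8 CPM for AngII+2W, and 10.7 and 20.1 CPM for AngII+3W. For both genes the lower CTRL library was above every library of the AngII groups, and the higher CTRL library was above it by 4.48-fold for Hspa1a and 5.12-fold for Hspa1b. In counts, Hspa1a had 6089 and 1408 in CTRL and between 170 and 603 in the other libraries, far above the floor of 3 counts (0.140 to 0.165 CPM). The counts of Hspa1b were 0.938 to 1.19 times those of Hspa1a over the 8 libraries.

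Against CTRL, the log2 fold change of Hspa1a was -3.47 ± 0.709 (SE) for AngII, -2.94 ± 0.690 for AngII+2W and -3.62 ± 0.716 for AngII+3W. For Hspa1b the log2 fold changes were -3.68 ± 0.739, -2.94 ± 0.712 and -3.73 ± 0.742, in the same order. Their size rested on CTRL replicate 1. Without it, the log2 fold change in AngII was -2.02 for Hspa1a and -2.07 for Hspa1b, and without CTRL replicate 2 it was -4.19 and -4.43. The 3 comparisons share the CTRL libraries, so that a high CTRL library enters each of them.

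The AngII groups, compared with each other, showed no called difference for this pair of genes. These contrasts come from the fit of all 8 libraries, so that the gap between the CTRL libraries enters their standard errors. The log2 fold change of AngII+3W against AngII was -0.15 ± 0.671 for Hspa1a and -0.05 ± 0.693 for Hspa1b. That of AngII+2W against AngII was 0.53 ± 0.664 and 0.74 ± 0.686. These standard errors were larger than for any other of the 10 genes, so that the values do not tell a difference between the AngII groups from none.

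Hspa8 encodes the constitutive Hsp70 protein of the cytosol (Hsc70), on chromosome 9 at 40800984 to 40810087. Its levels were 1197 and 1086 CPM for CTRL, 823 and 721 CPM for AngII, 758 and 821 CPM for AngII+2W, and 555 and 436 CPM for AngII+3W. The CTRL libraries were the highest and those of AngII+3W the lowest, without overlap with any other group, while AngII and AngII+2W overlapped. Against CTRL, the log2 fold change came to -0.56 ± 0.177 for AngII, -0.53 ± 0.177 for AngII+2W and -1.20 ± 0.179 for AngII+3W. Between the AngII groups, Hspa8 differed by -0.64 ± 0.178 on the log2 scale in AngII+3W against AngII (edgeR, FDR = 0.125) and by -0.67 ± 0.178 for AngII+3W against AngII+2W (FDR = 0.391). Neither passed the threshold of 0.05.

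The inducible pair was set against Hspa8 within each library, which needs no scaling between libraries. Hspa1a and Hspa1b together had 53.4% and 12.3% of the counts of Hspa8 for CTRL, 3.20% and 5.31% for AngII, 8.14% and 4.73% for AngII+2W, and 3.57% and 9.27% for AngII+3W. Both CTRL libraries were above the other 6. The inducible Hsp90aa1 had 42.6% and 29.4% of the counts of the constitutive Hsp90ab1 for CTRL, 35.8% and 32.7% for AngII, 28.1% and 25.8% for AngII+2W, and 26.4% and 24.9% for AngII+3W. Here CTRL replicate 2 was below both AngII libraries, and CTRL and AngII overlapped.

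**Figure D2:**
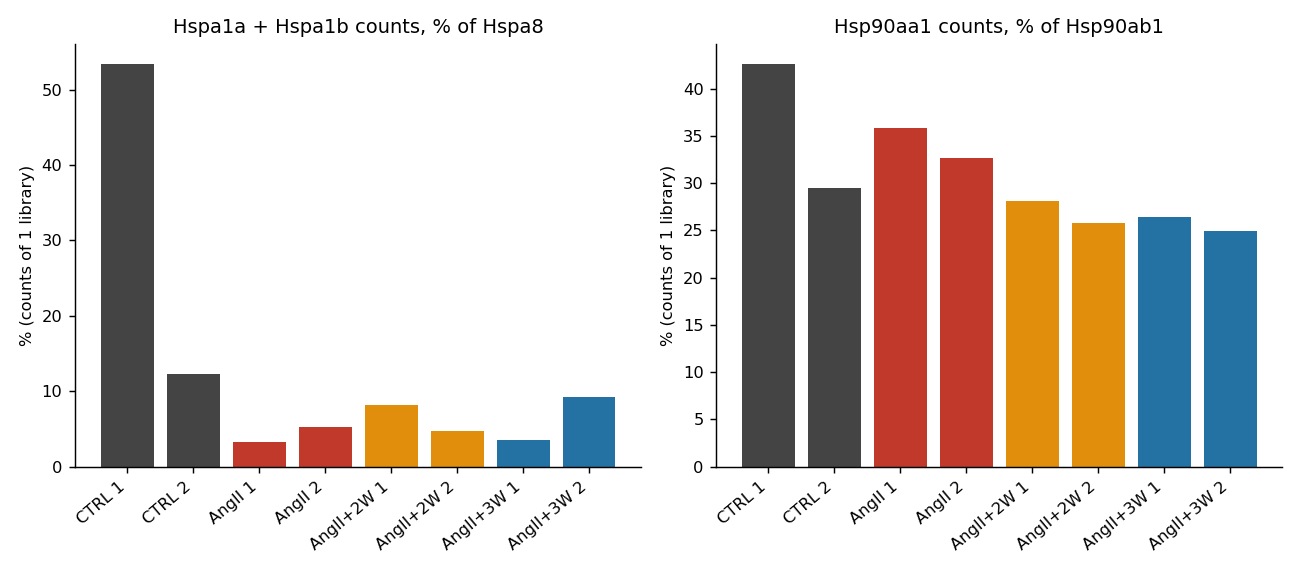
Counts of the inducible genes as a percentage of those of the constitutive gene of the same class in each of the 8 libraries (y axis from 0), for Hspa1a plus Hspa1b over Hspa8 (left) and Hsp90aa1 over Hsp90ab1 (right). CTRL replicate 1 reached 53.4% on the left, and the 6 libraries of the AngII groups stayed between 3.20% and 9.27%.

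Hsph1 and Dnajb1 assist Hsp70 and lie on chromosome 5 (149614287 to 149636376) and chromosome 8 (83608193 to 83612653). Levels of Hsph1 were 175 and 99.6 CPM for CTRL, 65.2 and 56.8 CPM for AngII, 79.7 and 85.0 CPM for AngII+2W, and 41.6 and 34.2 CPM for AngII+3W. No group overlapped another, and the order from high to low was CTRL, AngII+2W, AngII and AngII+3W. The log2 fold change of Hsph1 against CTRL was -1.17 ± 0.252 for AngII, -0.74 ± 0.249 for AngII+2W and -1.86 ± 0.257 for AngII+3W. Without CTRL replicate 1, it was -0.71 in AngII. AngII+3W gave -1.12 ± 0.253 for Hsph1 against AngII+2W (FDR = 0.373) and -0.69 ± 0.252 against AngII (FDR = 0.214), so that neither difference passed the threshold after adjustment over all genes.

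Dnajb1 had 56.7 and 29.4 CPM for CTRL, 23.8 and 26.6 CPM for AngII, 26.5 and 21.4 CPM for AngII+2W, and 17.5 and 18.7 CPM for AngII+3W. CTRL replicate 2 was just above the highest library of AngII, and AngII+3W was below every other library. Against CTRL, the log2 fold change came to -0.77 ± 0.280 for AngII, -0.84 ± 0.281 for AngII+2W and -1.25 ± 0.284 for AngII+3W. That in AngII was -0.22 without CTRL replicate 1 and -1.18 without CTRL replicate 2. AngII+3W against AngII gave -0.48 ± 0.283 (FDR = 0.416).

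Hsp90aa1 (chromosome 12, 110690605 to 110702728) and Hsp90ab1 (chromosome 17, 45567775 to 45573271) encode the inducible and the constitutive cytosolic Hsp90. Levels of Hsp90aa1 were 399 and 308 CPM for CTRL, 253 and 207 CPM for AngII, 223 and 229 CPM for AngII+2W, and 178 and 160 CPM for AngII+3W. Levels of Hsp90ab1 were 936 and 1045 CPM for CTRL, 705 and 632 CPM for AngII, 794 and 889 CPM for AngII+2W, and 674 and 643 CPM for AngII+3W. Hsp90aa1 was lowest in both AngII+3W libraries, while Hsp90ab1 was at like levels in AngII and AngII+3W and between these and CTRL in AngII+2W. Against CTRL, the log2 fold changes of Hsp90aa1 were -0.62 ± 0.172, -0.64 ± 0.172 and -1.06 ± 0.174 for AngII, AngII+2W and AngII+3W, and those of Hsp90ab1 were -0.57 ± 0.156, -0.24 ± 0.156 and -0.59 ± 0.156. AngII+3W against AngII gave -0.44 ± 0.172 for Hsp90aa1 (FDR = 0.239) and -0.02 ± 0.155 for Hsp90ab1.

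Hspd1 (Hsp60) and Hspe1 (Hsp10) form the mitochondrial chaperonin and lie head to head on chromosome 1, at 55077835 to 55088243 on the minus strand and 55088132 to 55091307 on the plus strand, where their annotated ends overlap by 112 bases. Levels of Hspd1 were 398 and 426 CPM for CTRL, 474 and 404 CPM for AngII, 360 and 414 CPM for AngII+2W, and 444 and 328 CPM for AngII+3W. Levels of Hspe1 were 93.0 and 91.3 CPM for CTRL, 108 and 88.7 CPM for AngII, 88.3 and 90.7 CPM for AngII+2W, and 89.1 and 79.7 CPM for AngII+3W. For Hspd1 all 4 groups overlapped, and for Hspe1 the AngII libraries lay on either side of CTRL. The log2 fold changes against CTRL lay between -0.10 and 0.09 for Hspd1 and between -0.13 and 0.09 for Hspe1, with standard errors of 0.186 for Hspd1 and 0.134 for Hspe1. The counts of Hspd1 were 4.08 to 4.98 times those of Hspe1 over the 8 libraries.

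**Figure D3:**
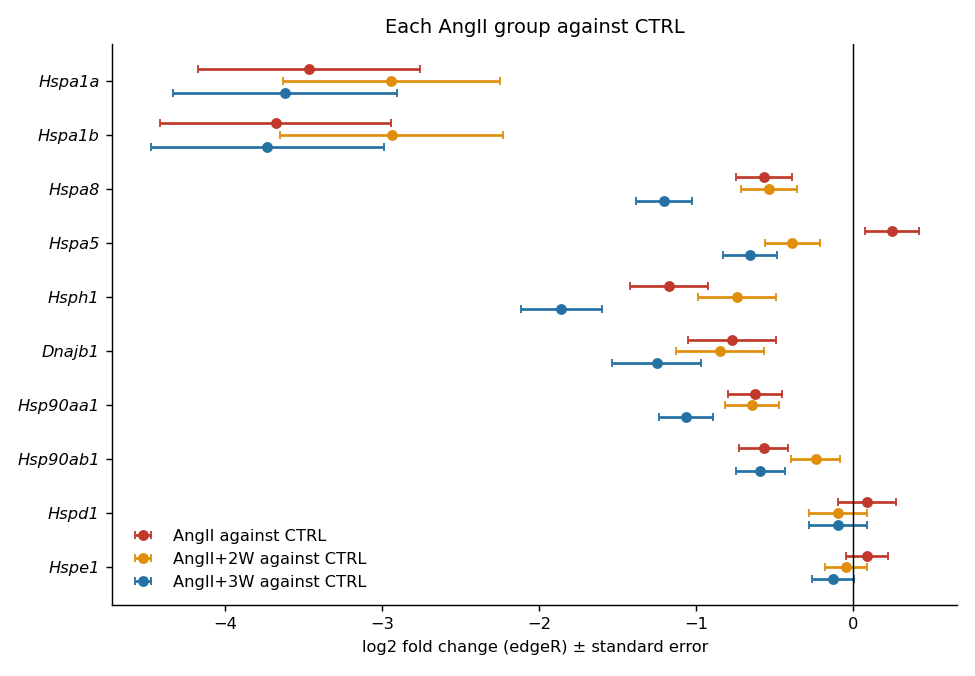
Log2 fold change of each chaperone gene against CTRL (x axis, edgeR estimate, bars of 1 standard error) in AngII, AngII+2W and AngII+3W (colors). Hspa1a and Hspa1b were furthest below 0, Hspd1 and Hspe1 were near 0, and Hspa5 was at 0.25 in AngII and -0.65 in AngII+3W.

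In the quasi-likelihood test of edgeR, Hspa1a, Hspa1b and Hsph1 were lower in AngII than in CTRL at an FDR below 0.05 (FDR = 0.0372, 0.0357 and 0.0419), beside 2.20% of all tested genes. In AngII+3W, Hsph1 was the only gene of the 10 below this threshold (FDR = 0.0455), beside 0.268% of tested genes. In AngII+2W, 0 of the 10 passed it, beside 0% of tested genes. At an unadjusted p below 0.05, the 10 genes had 7 lower values for AngII, 6 for AngII+2W and 8 for AngII+3W, beside 9.29%, 6.18% and 7.18% of tested genes. DESeq2 called 6, 3 and 8 of the 10 lower, beside 4.02%, 1.58% and 2.78% of tested genes, and edgeR's likelihood ratio test 5, 2 and 6, beside 4.24%, 1.75% and 2.49%. Both called Hsp90aa1 lower in AngII and in AngII+3W, as the study did at an FDR below 0.05 in its own edgeR analysis. Without CTRL replicate 1, the median log2 fold change of the 10 genes in AngII against CTRL was -0.46. Without CTRL replicate 2, it was -0.72. The calls did not hold in every fit with 1 library left out. Such a fit leaves 1 library in a group, and the number called among all tested genes moved as well. Since the genes were chosen with the comparisons against CTRL in view, these numbers describe the choice. The median log2 fold change of the 10 genes was -0.59 for AngII, -0.59 for AngII+2W and -1.13 for AngII+3W, where that of all tested genes was -0.01, -0.00 and 0.03. Without Hspa1a and Hspa1b, between which the division of reads is uncertain, the median was -0.57, -0.46 and -0.86.

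In CTRL replicate 1, 4 of the 10 genes were more than 1.5-fold above replicate 2 (Hspa1a, Hspa1b, Dnajb1 at 1.93-fold and Hsph1 at 1.76-fold), beside 11.6% of tested genes. Hsp90aa1 was 1.30-fold higher in replicate 1, Hspa5 1.24-fold and Hspa8 1.10-fold. Hsp90ab1 and Hspd1 were higher in replicate 2, by 1.12-fold and 1.07-fold. The gap was therefore widest in Hspa1a, Hspa1b, Dnajb1 and Hsph1 and small or in the other direction in Hspe1, Hsp90ab1 and Hspd1. For the inducible Hsp90aa1, 6513 of 17182 tested genes had a wider gap. Of 17182 tested genes, 225 had a wider gap in CTRL than Hspa1b and 252 a wider gap than Hspa1a, and of these 8 and 10 were among the 9910 genes with a mean of at least 10 CPM. In AngII+3W, it was replicate 2 that had the higher level of Hspa1a (2.23-fold) and Hspa1b (1.88-fold). More than 1.5-fold between replicates was found in AngII for 1 of the 10 genes, in AngII+2W for 1 and in AngII+3W for 2, beside 15.5%, 12.3% and 22.8% of tested genes.

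**Figure D4:**
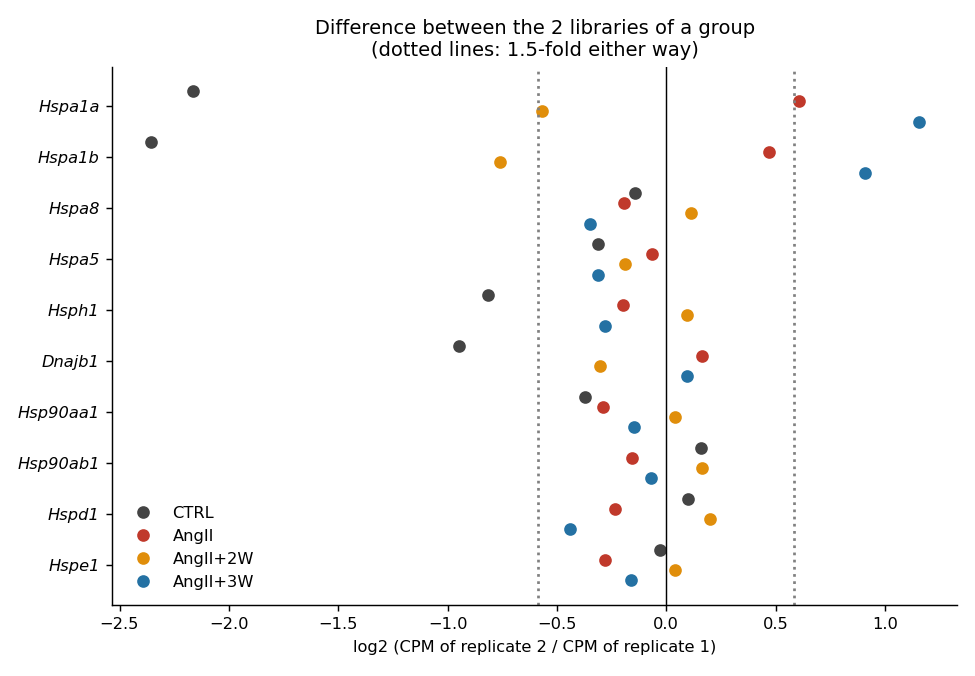
Log2 ratio of replicate 2 to replicate 1 (x axis) for the 10 chaperone genes in each group (colors), with dotted lines at 1.5-fold either way. In CTRL, Hspa1a, Hspa1b, Dnajb1 and Hsph1 were past the line to the left, and in AngII+3W Hspa1a and Hspa1b were past it to the right.

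Other transcripts also set the CTRL libraries apart. Of 14 immediate early genes, which cells induce within minutes of a stimulus, 10 were higher in CTRL replicate 1, beside 51.2% of tested genes, with summed levels of 1271 and 999.8 CPM in CTRL and 438 to 740 CPM in the other 6 libraries. Atf3, a stress-induced transcription factor, had 74.4 and 34.2 CPM in CTRL and 7.41 to 14.2 CPM elsewhere, and Fos had 38.2 and 16.3 CPM in CTRL and 5.80 to 20.0 CPM elsewhere. The 5 smooth muscle markers (Acta2, Tagln, Myh11, Cnn1 and Lmod1) summed to 8606 and 6626 CPM for CTRL, 1462 and 1845 CPM for AngII, 3517 and 3117 CPM for AngII+2W, and 1408 and 2677 CPM for AngII+3W. All 5 cardiac muscle markers were higher in CTRL replicate 1, at a sum of 3690 against 1658 CPM, and ranged from 6.39 to 4339 CPM elsewhere. All 5 markers were also higher there for smooth muscle, fibroblasts (781 against 464 CPM) and macrophages (170 against 119 CPM). All 5 adipocyte markers were higher in CTRL replicate 2 (5320 against 6868 CPM). The endothelial, lymphocyte, skeletal muscle, Schwann and erythroid markers were split in direction. In AngII+3W replicate 1, the skeletal muscle markers summed to 2277 CPM, where the other 7 libraries had 3.97 to 73.2 CPM. The 3 erythroid markers (Hbb-bs, Hba-a1 and Alas2) summed to 2636 and 2536 CPM for CTRL, 1822 and 1837 CPM for AngII, 604 and 1571 CPM for AngII+2W, and 716 and 461 CPM for AngII+3W, so that all 6 libraries of the AngII groups were below both of CTRL. Genes of the mitochondrial genome took 18.3% of counts in AngII+3W replicate 1 and 8.15% to 13.5% in the other libraries. The part of these genes and of tissue makeup in the chaperone levels was not tested.

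Like Hspa8, Hsph1, Dnajb1 and Hsp90aa1, Hspa5 had its lowest mean in AngII+3W. Unlike the cytosolic genes, it had a mean above that of CTRL in AngII. It lies on chromosome 2 at 34771970 to 34777547, with levels of 441 and 356 CPM for CTRL, 485 and 463 CPM for AngII, 325 and 285 CPM for AngII+2W, and 281 and 226 CPM for AngII+3W. Both AngII libraries were above both CTRL libraries, by a narrow margin (463 against 441 CPM). All 4 libraries from after the infusion were below both CTRL libraries. The share of tested genes with these orders is not given here. Against CTRL, the log2 fold change of Hspa5 came to 0.25 ± 0.173 for AngII (FDR = 0.484), -0.38 ± 0.174 for AngII+2W (FDR = 0.492) and -0.65 ± 0.174 for AngII+3W (FDR = 0.178). The AngII value was 0.41 without CTRL replicate 1 and 0.09 without CTRL replicate 2. Against AngII, Hspa5 gave -0.63 ± 0.174 for AngII+2W (FDR = 0.153) and -0.90 ± 0.175 for AngII+3W (FDR = 0.0522), which is a level 1.87-fold higher in AngII than in AngII+3W. The second value was just short of the threshold. It was past it with DESeq2 (FDR = 3.60e-05) and the likelihood ratio test (0.00146), and the FDR was 0.162 when only these 2 groups were fitted.

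Genes of the ER stress response were followed beside Hspa5, in a list of 21 genes that does not hold Hspa5 and was written with earlier results known. From AngII to AngII+3W, 6 of the 21 fell at an FDR below 0.05 and 0 rose, beside 1.32% of tested genes called lower. Its median was -0.35 on the log2 scale, where that of all tested genes was 0.04, and 19 of 21 values were below 0, beside 46.0% of tested genes. Manf, a secreted ER stress protein, had 43.8 and 43.1 CPM in AngII against 18.0 and 17.3 CPM in AngII+3W and fell by 1.30 ± 0.146 on the log2 scale (FDR = 0.0206). Sdf2l1, a component of an ER chaperone complex, had 8.75 and 10.5 CPM in AngII against 2.10 and 2.90 CPM in AngII+3W, at a log2 fold change of -1.94 ± 0.254 (FDR = 0.0226). Calr, the lectin chaperone calreticulin, had 529 and 473 CPM in AngII against 228 and 255 CPM in AngII+3W, at -1.06 ± 0.146 (FDR = 0.0252). The other genes called were the protein disulfide isomerases Pdia3, Pdia4 and Pdia6, at -1.03, -1.01 and -0.77, named after their values were seen. Hsp90b1, the Hsp90 of the ER, gave -0.70 ± 0.150 (FDR = 0.0676).

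The 6 calls in the ER stress list were lost (0 called) when only the 2 groups were fitted. They did not hold in every fit with 1 library left out, where the number called among all tested genes moved as well. In AngII against CTRL, 16 of the 21 genes had a value above 0 (median 0.19), beside 48.9% of tested genes. None passed the threshold in edgeR, where 2.90% of tested genes were called higher, while 6 were higher at an unadjusted p below 0.05, beside 10.9%. DESeq2 called 2 higher and the likelihood ratio test 1, beside 5.22% and 5.72%. Ddit3 and Herpud1, which belong to the same response, had the 2 lowest values there, at log2 fold changes of -0.39 and -0.38, and values above 0 in AngII+3W against AngII. The macrophage markers summed to 306 and 423 CPM in AngII and 94.6 and 175 CPM in AngII+3W, and the fibroblast markers to 1358 and 1764 against 549 and 1101 CPM. Their part in the levels of Hspa5 and of this list was not tested.

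**Figure D5:**
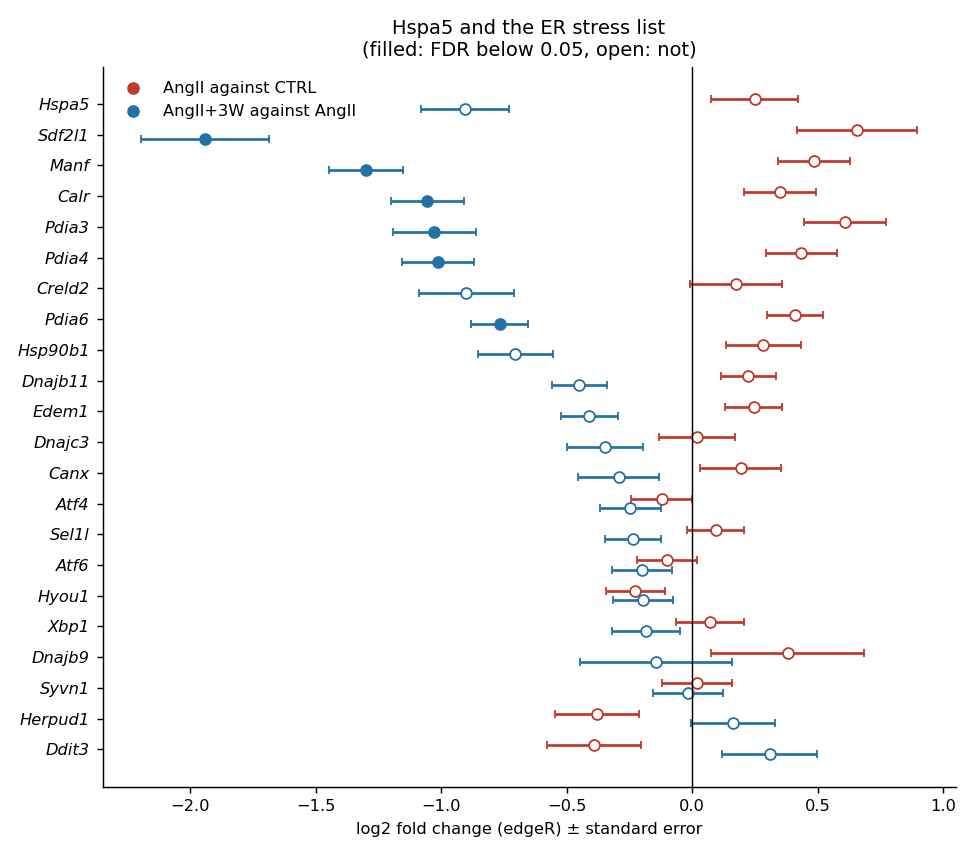
Log2 fold change (x axis, edgeR estimate, bars of 1 standard error) of Hspa5 and 21 ER stress genes in AngII against CTRL (red) and AngII+3W against AngII (blue), filled where the FDR was below 0.05. Most red points lie right of 0 and most blue points left of it, and the 6 filled points are Sdf2l1, Manf, Calr, Pdia3, Pdia4 and Pdia6 in blue.

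Across the 3 comparisons between AngII groups, 0 of the 10 chaperone genes passed an FDR of 0.05 in edgeR's quasi-likelihood test, beside 0.163% of tested genes in AngII+2W against AngII, 1.61% in AngII+3W against AngII and 0% in AngII+3W against AngII+2W. At an unadjusted p below 0.05 the numbers were 1, 4 and 3, all lower in the later group, beside 8.45%, 10.4% and 4.22% of tested genes. DESeq2 called 1, 2 and 2 of the 10 lower, beside 2.57%, 4.28% and 0.663% of tested genes, and the likelihood ratio test 0, 2 and 1, beside 2.80%, 4.56% and 0.698%. Hspa8, Hspa5, Hsph1, Dnajb1 and Hsp90aa1 were lower in both AngII+3W libraries than in both AngII libraries, beside 24.2% of tested genes. These comparisons share libraries with each other and with those against CTRL.

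The helpers of these chaperones were counted in lists. Of 17 Hsp90 co-chaperones, which load clients or pace the ATPase, 0 were called in any comparison in edgeR's quasi-likelihood test, and 16 had a log2 fold change below 0 against CTRL in each AngII group, beside a share of tested genes between 46.4% (AngII+3W) and 51.0% (AngII). Their medians were -0.28, -0.26 and -0.24, where those of all tested genes were -0.01, -0.00 and 0.03. At an unadjusted p below 0.05, 7, 5 and 7 of them were lower than CTRL, beside 9.29%, 6.18% and 7.18% of tested genes. DESeq2 called 2, 0 and 3 lower and the likelihood ratio test 1, 0 and 2, against the shares of 1.58% to 4.24% given above for these tools. The lists were chosen with earlier results known, and the comparisons with CTRL share its libraries, so that these numbers are descriptions. Of 18 J proteins, 2 were lower in AngII than in CTRL, beside 2.20% of tested genes, namely Dnajb5 at a log2 fold change of -1.60 ± 0.183 (FDR = 0.00778) and Dnajb2 at -0.94 ± 0.144 (FDR = 0.0169). Dnajb5 had 75.6 and 59.2 CPM in CTRL and 20.8 to 33.1 CPM in the other libraries, an order that 7.04% of tested genes showed. Of 9 other Hsp70 and Hsp110 genes, Hspa2 was lower in AngII than in CTRL, at -1.45 ± 0.225 (FDR = 0.0172).

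None of the 9 Hsp70 exchange factors and helpers, the 8 subunits of the cytosolic chaperonin, the 10 mitochondrial chaperones and proteases, the 2 other Hsp90 genes and the 4 heat shock factor genes was called in edgeR's quasi-likelihood test in any of the 6 comparisons. An unadjusted p below 0.05 was found in a comparison for at most 3, 3, 1, 1 and 1 of them, and for 8.83% to 20.2% of tested genes. DESeq2 and the likelihood ratio test called Hsp90b1 in AngII+3W against AngII and 0 others. Hsf1, which encodes heat shock factor 1, had 33.3 and 39.8 CPM in CTRL and 23.7 to 33.7 CPM in the other libraries, and gave a log2 fold change of -0.50 ± 0.188 for AngII (FDR = 0.187).

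Levels of different genes were compared per kilobase of the longest annotated transcript. In CTRL, the order from high to low in CPM per kb was Hsp90ab1 (393), Hspa8 (362), Hspd1 (170), Hspa5 (109), Hsp90aa1 (108), Hspe1 (95.6), Hspa1b (73.1), Hspa1a (61.2), Hsph1 (28.8) and Dnajb1 (14.4). In AngII+3W it was Hsp90ab1 (261), Hspd1 (159), Hspa8 (157), Hspe1 (87.5), Hspa5 (69.0), Hsp90aa1 (51.5), Hsph1 (7.96), Dnajb1 (6.04), Hspa1b (5.49) and Hspa1a (4.97). Hspa1a and Hspa1b thus had the lowest means of the 10 in AngII+3W and means above those of Hsph1 and Dnajb1 in CTRL. Of neighbors in the CTRL order, Hspa8 and Hspd1, Hspd1 and Hspa5, and Hsph1 and Dnajb1 did not overlap between their libraries, and all other neighbors did. In the AngII+3W order, Hspd1 overlapped Hspa8, and Hspa1b overlapped both Dnajb1 and Hspa1a. The 10 genes together held 0.424% and 0.363% of counts in CTRL, 0.293% and 0.276% for AngII, 0.271% and 0.293% for AngII+2W, and 0.213% and 0.202% for AngII+3W.

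The genes most alike in pattern were sought among 9900 tested genes outside the 10 with a mean of at least 10 CPM, by Pearson's r between their log2 CPM and the mean of the 10 centered profiles over the 8 libraries. They were Clic4 (r = 0.993), Bcl2l1 (0.984), Lpp (0.981), Rasl11b (0.977) and Rgs4 (0.971). Clic4 had 705 and 546 CPM in CTRL and 382 to 474 CPM in the other libraries, and Lpp had 1274 and 781 CPM against 369 to 681 CPM. CTRL replicate 1 was the highest library for all 5, as it was for 6 of the 10 chaperone genes. The 8 points share their groups and CTRL replicate 1, and the values are descriptions of these libraries. The centered profiles were not scaled to a common range, so that Hspa1a and Hspa1b, with the widest range, weighed most in the mean. Hspd1 and Hspe1 had an r of -0.18 and 0.00 with Hspa1a, so that the mean does not describe all 10 genes alike. Processed pseudogenes near-identical to Hspa8, Hsp90aa1 and Hspd1 (Gm8355, Gm15459, Gm6210, Gm7232, Gm12346, Gm5844 and Hspd1-ps3) had at most 1.94% of the counts of their gene in any library.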

How the data were processed

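RNA of 8 aortic libraries, 2 in each group and 2 mice in each library, was analysed, and groups and replicate numbers were taken from the labels. The authors estimated transcript abundances with Salmon in the ARMOR workflow (GRCm38 transcripts, FastQC and MultiQC checks), and the deposited values are expected counts per gene, summed with tximeta. All of them were whole numbers, so that rounding changed none, and transcript lengths were not used. Of 35896 genes, 11469 were at 0 in every library. Libraries summed to between 18130441 and 21498200 counts, which puts 3 counts at 0.140 to 0.165 CPM.

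Genes were filtered with filterByExpr, scaled by TMM and tested with edgeR 4.0.16 in R 4.3.3 (quasi-likelihood F test in its older form, all 8 libraries in 1 model, 4 residual degrees of freedom). All p-values are two-sided, with adjustment over 17182 genes by the Benjamini-Hochberg method (FDR, threshold 0.05). A standard error is the log2 fold change divided by the square root of F. The script was tested on simulated data. An exact permutation of 2 libraries against 2 cannot reach this threshold and was not used.

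The 10 genes and all lists were chosen with earlier results of these data known. Named are all 10 genes, up to 3 genes of each list with the smallest p past the threshold in each direction, the 5 genes most alike in pattern, and near-identical pseudogenes (BLAST 2.17.0, at least 95% identity over at least 50% of the transcript, GENCODE transcripts on GRCm38, which held 98.7% of the gene identifiers). Genes named for other reasons were chosen after their values were seen. CPM per kb uses the longest transcript. Alternatives were DESeq2 1.42.0, a likelihood ratio test, the newer quasi-likelihood fit, other scalings and filters, a replicate block, a fit of only the 2 groups compared, and leaving out each library.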

Additional observations from a re-analysis of the deposited data

Results flagged for a closer look

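Hspa5 moved in opposite directions from CTRL at the end of the infusion and after it. Against CTRL, its log2 fold change came to 0.25 in AngII, with both libraries above both CTRL libraries, and -0.38 in AngII+2W and -0.65 in AngII+3W, with both libraries of each group below both CTRL libraries. None of the 3 values passed an FDR of 0.05. The direct comparison, which tests the difference between these groups, gave an FDR of 0.153 for AngII+2W against AngII and 0.0522 for AngII+3W against AngII.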

How the results depend on the processing

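With 2 libraries in each group, numbers of called genes moved with the tool and filter more than fold changes did, and the cause was not tested. Of the 10 chaperone genes, 3 were called in AngII against CTRL, 0 in AngII+2W and 1 in AngII+3W. DESeq2 called 6, 3 and 8, and the likelihood ratio test 5, 2 and 6. In AngII+3W against CTRL, 0 were called with library totals alone or with only the 2 groups fitted, 5 with every gene of at least 1 count and 3 where every library had to reach 10 counts. In AngII+3W against AngII (0 called), DESeq2 and the likelihood ratio test each called 2, and library totals alone, both filters and the newer quasi-likelihood fit each called 1. In AngII+2W against AngII (0 called), DESeq2 and the fit of only these 2 groups each called 1. In AngII+3W against AngII+2W (0 called), DESeq2 called 2 and the likelihood ratio test 1. Leaving out a library leaves 1 library in a group. The calls against CTRL did not hold in every such fit, and the numbers called among all tested genes moved widely too. With the replicate block, 1 and 0 genes were called in AngII and AngII+3W against CTRL, where Hsph1 was called in AngII (FDR = 0.0362) and Hspa1a (0.0649) and Hspa1b (0.0603) in AngII and Hsph1 in AngII+3W (0.0743) were not, and 1 in AngII+3W against AngII (Hspa5, 0.0407). Same-numbered libraries deviated together with correlations of -0.01 to 0.33 over 15159 genes and come from different mice. The labels do not say whether they shared a step of preparation, and this was not tested. For the ER stress genes, alternatives were chosen after seeing the data: 6 were called lower in AngII+3W against AngII, 6 with the replicate block, 0 with only the 2 groups fitted, and 0 to 7 without 1 library. The 4 wide gaps in CTRL were also 4 under both other scalings. Directions changed only when a library was left out and only for small log2 fold changes that no fit of all libraries called: Hspd1 (-0.028 to 0.20) and Hspe1 (-0.054 to 0.23) in AngII against CTRL, Hspd1 in AngII+3W against CTRL (-0.33 to 0.053), Hspa8 (-0.056 to 0.12), Dnajb1 (-0.24 to 0.069), Hsp90aa1 (-0.15 to 0.12) and Hspe1 (-0.26 to 0.0032) in AngII+2W against AngII, Hspa1a (-0.89 to 0.32), Hspa1b (-0.63 to 0.34) and Hsp90ab1 (-0.11 to 0.024) in AngII+3W against AngII, and Hspd1 in AngII+3W against AngII+2W (-0.24 to 0.15).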

Other observations

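The immediate early genes were lower in AngII than in CTRL for 3 of 14 genes at an FDR below 0.05, beside 2.20% of tested genes. Zfp36 gave a log2 fold change of -0.86 ± 0.162 (FDR = 0.0290), Btg2 -1.17 ± 0.225 (FDR = 0.0321) and Atf3 -2.14 ± 0.464 (FDR = 0.0426). Jun, which is in the same list, had 146 and 162 CPM in CTRL and 64.6 to 112 CPM in the other libraries.

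Hspa9, the Hsp70 of the mitochondrial matrix, had 574 and 734 CPM for CTRL, 760 and 599 CPM for AngII, 662 and 719 CPM for AngII+2W, and 788 and 597 CPM for AngII+3W. Its groups overlapped, as those of Hspd1 did, and of the CTRL libraries replicate 2 was the higher for 9 of the 10 mitochondrial chaperones and proteases, beside 48.7% of tested genes.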
